A study of Mus musculus with 12 samples.

Results

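The heart of mice lacking p53 or p66 was compared with the heart of wild type mice, to find the genes that were 2-fold or more lower, or 2-fold or more higher, than wild type in both knock-outs. A gene was a member when its log2 signal on both knock-out arrays lay 1 or more below, or 1 or more above, the wild type array. Of 18193 genes measured, 159 met this rule. Of these, 155 genes were lower in both knock-outs (0.852% of all genes) and 4 were higher in both (0.022%).

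The study placed p53 and p66 in a shared transcriptional response to oxidative stress, and the tissue arrays addressed which genes depend on either protein in the tissues of young mice. The mice were p53 knock-out (p53-/-, labelled p53KO) and p66 knock-out (p66-/-, labelled p66KO) animals, with wild type (WT) as the control. All were Sv/129 mice aged 2 months, the labels name no treatment, and thymus, lung, heart and liver were freshly isolated. Each of the 12 arrays carried RNA pooled from 4 mice, with 1 array for each tissue and genotype. The labels do not say whether the pools of different tissues came from the same mice, nor how the alleles were made. With 1 heart array per genotype, no heart difference has a replicate check, no p-value was computed for heart, and both comparisons share the WT array. In RNA of a whole organ, fewer cells of a type and less RNA per cell cannot be told apart.

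p53 is a transcription factor that stress stabilises, and it switches on genes of growth arrest, repair and cell death. p66 is the long isoform of Shc1, known for a role in mitochondrial production of reactive oxygen species and in apoptosis. The heart draws its energy mainly from fatty acids, and its muscle cells express inducible genes of stress, load and fasting.

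The arrays carried heart RNA. The defining cardiomyocyte genes were near the top of the scale and within 0.2 of each other across genotypes, with a sign that depended on the scaling. All 4 lay slightly below WT as deposited and above WT after cyclic loess. Myh6, the main myosin heavy chain of the adult mouse heart, was 14.46 in p53KO and 14.46 in p66KO hearts, against 14.57 in WT hearts (log2 signal, as for all levels given here). Myl2, the ventricular light chain, was 14.87 and 14.73 in p53KO and p66KO hearts, against 14.87 in WT hearts. Among atrial genes, Nppa (atrial natriuretic peptide) was 14.17 and 13.80 in p53KO and p66KO hearts, against 14.41 in WT hearts. No gene of 35 in a sarcomere and cardiomyocyte list and none of 15 in an atrial list was 2-fold lower in both knock-outs. These counts are near the 0.852% of all genes. Shc1, which encodes p66 and its shorter isoforms, was 8.91 and 9.37 in p53KO and p66KO hearts, against 8.93 in WT hearts. No source places its probes within the deleted part, so this does not check the genotype. The transcript of p53 was not analysed here.

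The knock-out hearts differed from each other less than either differed from WT. Over all genes the SD of p53KO minus p66KO was 0.289 on the log2 scale, against 0.42 for p53KO minus WT and 0.427 for p66KO minus WT. In p53KO hearts 378 genes were 2-fold lower than WT (2.08%) and 21 were 2-fold higher (0.115%). In p66KO hearts 304 were 2-fold lower (1.67%) and 33 were 2-fold higher (0.181%), so that 9.79% of the different genes were higher as deposited and 20.9% after repeated quantile normalization. Between the knock-outs, 52 genes (0.286%) stood 2-fold or more apart. For each member the spread was taken as the 95th percentile of the absolute difference between the knock-outs over the 500 genes nearest in heart signal. That spread ran over 0.456 to 0.693, and since it stayed under 1 the rule itself placed every member beyond it. Among the 155 lower genes the median difference was -1.30 in p53KO and -1.30 in p66KO hearts. Jchain was the only lower gene in which the knock-outs themselves differed 2-fold. Of the 155, 12 were lower by 2 or more in both knock-outs, 23 by 1.5 to 2, and 120 by 1 to 1.5.

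Just inside the threshold stood Pom121, at 8.02 and 8.05 in p53KO and p66KO hearts, against 9.05 in WT hearts, with Tspan12 and Cd302. Just outside it stood Sgk1, a kinase gene induced by glucocorticoids, at 7.36 and 7.75 in p53KO and p66KO hearts, against 8.75 in WT hearts, with Hivep1 and Ywhag. On the high side Mapk12 was the last gene inside, and Rhbdd2, at 9.08 and 9.10 in p53KO and p66KO hearts, against 8.13 in WT hearts, was outside.

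**Figure D1:**
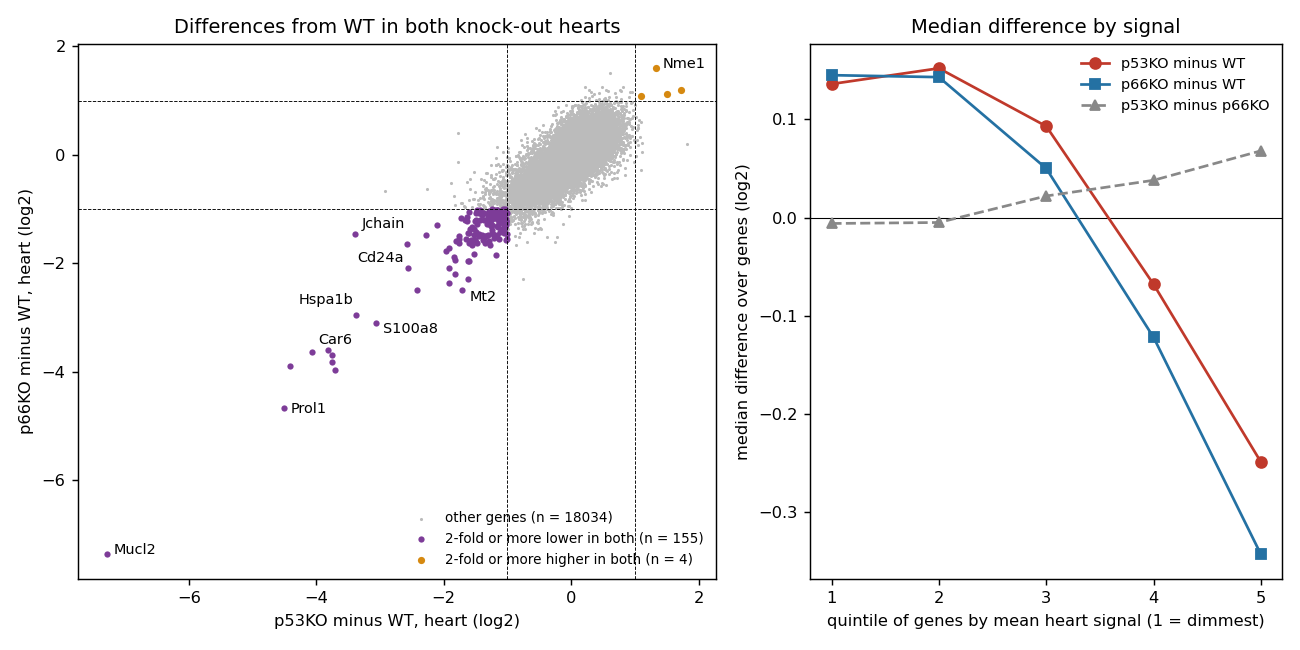
Left, difference from WT in heart for 18193 genes, p53KO on the x axis and p66KO on the y axis (log2, 1 array per genotype), with dashed lines at 2-fold, purple points for the 155 genes lower in both and orange points for the 4 higher in both. Right, median difference over genes in each quintile of heart signal, where both knock-outs lay above WT among the dimmest genes (0.136 in p53KO and 0.145 in p66KO) and below it among the brightest (-0.249 in p53KO and -0.343 in p66KO).

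Signal range differed with genotype too. The SD over genes was 1.74 and 1.71 on the p53KO and p66KO heart arrays, against 1.88 on the WT array. The median difference over genes was 0.136 in p53KO and 0.145 in p66KO hearts for the dimmest quintile of genes, and -0.249 and -0.343 in p53KO and p66KO hearts for the brightest quintile. The lower members were bright genes, with a median WT heart level of 8.86 against 7.14 over all genes. Spiked hybridization controls, added in equal amount to each labelled sample, averaged 12.27 and 12.24 on the p53KO and p66KO heart arrays, against 11.41 on the WT array. The part of this range difference in the member counts was tested only by rescaling. Of the 155, 90 were also 2-fold lower in both knock-outs under each of 3 rescalings of the heart arrays, and this held for all 30 of the genes lowest in both. The 90 were the members that repeated quantile normalization kept. Median centring lowered all values of a knock-out array against WT by the same amount, so it could drop no lower member. All 155 stayed below WT in both knock-outs under every rescaling, but a gene chosen at 1 or more below WT could hardly cross it.

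Heat shock, metallothionein and acute phase genes were among those low in both knock-outs, and the promoter windows of 4 of them show elements known from such genes. The windows run over 250 bases before and 50 after the start site, from RefSeq on GRCm38.p6, 5′ to 3′ on the gene's strand. Capitals mark matches on either strand to the metal response element (TGCGCNC or TGCACNC) in Mt1 at chr8:94178839-94179138 (plus strand) and Mt2 at chr8:94172368-94172667 (plus strand). They mark the heat shock element (GAANNTTC or TTCNNGAA) in Hspa1b at chr17:34959189-34959488 (minus strand), and the palindrome ACANNNTGT, the core of the glucocorticoid response element, in Lcn2 at chr2:32387690-32387989 (minus strand).
Mt1: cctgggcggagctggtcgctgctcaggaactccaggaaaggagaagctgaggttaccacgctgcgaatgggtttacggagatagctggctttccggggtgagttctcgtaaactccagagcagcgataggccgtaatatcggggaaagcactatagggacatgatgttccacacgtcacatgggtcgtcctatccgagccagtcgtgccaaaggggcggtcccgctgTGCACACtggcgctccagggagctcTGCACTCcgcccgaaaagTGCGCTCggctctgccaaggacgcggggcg
Mt2: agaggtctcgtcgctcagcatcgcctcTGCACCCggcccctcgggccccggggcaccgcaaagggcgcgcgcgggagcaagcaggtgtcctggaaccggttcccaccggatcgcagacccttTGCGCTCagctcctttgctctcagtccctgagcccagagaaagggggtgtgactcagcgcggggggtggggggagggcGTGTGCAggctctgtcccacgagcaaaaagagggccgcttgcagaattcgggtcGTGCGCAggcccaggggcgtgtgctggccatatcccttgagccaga
Hspa1b: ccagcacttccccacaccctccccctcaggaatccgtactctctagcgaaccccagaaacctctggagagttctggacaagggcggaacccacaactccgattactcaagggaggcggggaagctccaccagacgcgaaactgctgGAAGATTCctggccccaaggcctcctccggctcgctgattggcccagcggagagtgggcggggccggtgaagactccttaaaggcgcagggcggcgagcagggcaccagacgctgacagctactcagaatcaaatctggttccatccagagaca
Lcn2: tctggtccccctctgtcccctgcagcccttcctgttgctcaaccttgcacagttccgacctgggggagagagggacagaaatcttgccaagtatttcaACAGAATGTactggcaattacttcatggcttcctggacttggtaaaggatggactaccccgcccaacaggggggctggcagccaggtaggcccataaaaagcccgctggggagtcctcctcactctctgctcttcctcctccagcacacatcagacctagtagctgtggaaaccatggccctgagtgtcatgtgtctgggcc
A window was found for 129 of the 155 lower genes, 28 of which had more than 1 listed start, the first by position being used, and for 14368 genes of the array. The heat shock element was in 15 of the 129 (11.6%), against 12.9% of all windows, and the metal response element in 44 (34.1%), against 32.8%. The glucocorticoid palindrome was in 11 (8.53%), against 4.98%, and these were Crisp3, S100a8, Lcn2, Cela1, Rcan1, Mt1, Serpina3n, AI467606, Ctla2a, Glul and Pcolce2. The E-box CACGTG was in 9 (6.98%), against 8.84%, and the cyclic AMP response element TGACGTCA in 3 (2.33%), against 2.57%. A match is a description of these letters and not a binding site.

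Muscle and calcium genes were among the lower genes of functions other than heat shock and the acute phase. The functional groups used from here on were drawn up after the values were seen, and 86 of the 155 lower genes fell into them. Lrg1, Serpina3n and Cebpb in these groups were also in the acute phase list. Of these 86, 45 were 2-fold lower in both knock-outs under all 3 rescalings and 41 were not. Acta1, skeletal alpha-actin and a gene of the fetal and load-induced programme of the heart, was 11.71 and 11.34 in p53KO and p66KO hearts, against 13.54 in WT hearts, a difference of -1.83 in p53KO and -2.20 in p66KO. Myl1, a light chain of fast skeletal and fetal muscle, was 9.15 and 8.61 in p53KO and p66KO hearts, against 10.16 in WT hearts. Both were brightest in heart among the WT tissues. Other fast skeletal muscle genes did not share this. Mylpf, the regulatory light chain of fast fibres, was 6.47 and 6.40 in p53KO and p66KO hearts, against 5.91 in WT hearts, and Tnnc2, fast troponin C, was 6.48 in p53KO and 5.59 in p66KO hearts, against 5.37 in WT hearts. Of 25 genes in the fast skeletal muscle list, Acta1 and Myl1 alone were 2-fold lower in both as deposited, and 1 gene was after cyclic loess or quantile normalization. The list medians were 0.249 and 0.222 in p53KO and p66KO hearts.

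Rcan1, an inhibitor of the phosphatase calcineurin and itself a calcineurin-induced gene, was 8.90 and 9.19 in p53KO and p66KO hearts, against 10.39 in WT hearts. Nfatc3, a transcription factor that calcineurin activates, was 6.0 and 5.68 in p53KO and p66KO hearts, against 7.06 in WT hearts. Both belong to the calcineurin pathway, which calcium switches on. Gnaq, the G protein alpha subunit that couples hormone receptors to calcium release, was 7.24 and 7.36 in p53KO and p66KO hearts, against 8.56 in WT hearts. Inpp5a, which removes the calcium-releasing messenger inositol trisphosphate, was 10.35 in p53KO and 10.23 in p66KO hearts, against 11.48 in WT hearts. In all, 9 lower members belonged to contraction or calcium signalling, Tpm3, Efhd2 and Pcp4l1 among them. Their differences ran over -1.01 to -1.83 in p53KO and -1.20 to -2.20 in p66KO hearts, and Myl1, Tpm3, Rcan1 and Inpp5a were not 2-fold lower under every rescaling. Of the other probe sets, 4 of 6 were below WT in both for Gnaq, 1 of 4 for Tpm3, and 1 of 1 for each of Rcan1, Nfatc3 and Efhd2. None of them passed the rule. Their median difference was -0.207 in p53KO and -0.242 in p66KO hearts for Gnaq, and 0.098 and -0.303 for Tpm3. Of 14 measured genes in the fetal and stress gene list, 5 were 2-fold lower in both (Acta1, Mt2, Ccn2, Rcan1 and Timp1), with list medians of -0.78 in p53KO and -0.65 in p66KO hearts, against 0.027 and -0.004 over all genes. After cyclic loess 3 were, with medians of -0.50 and -0.27 in p53KO and p66KO hearts, and after quantile normalization 3, with medians of -0.47 in p53KO and -0.32 in p66KO hearts.

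**Figure D2:**
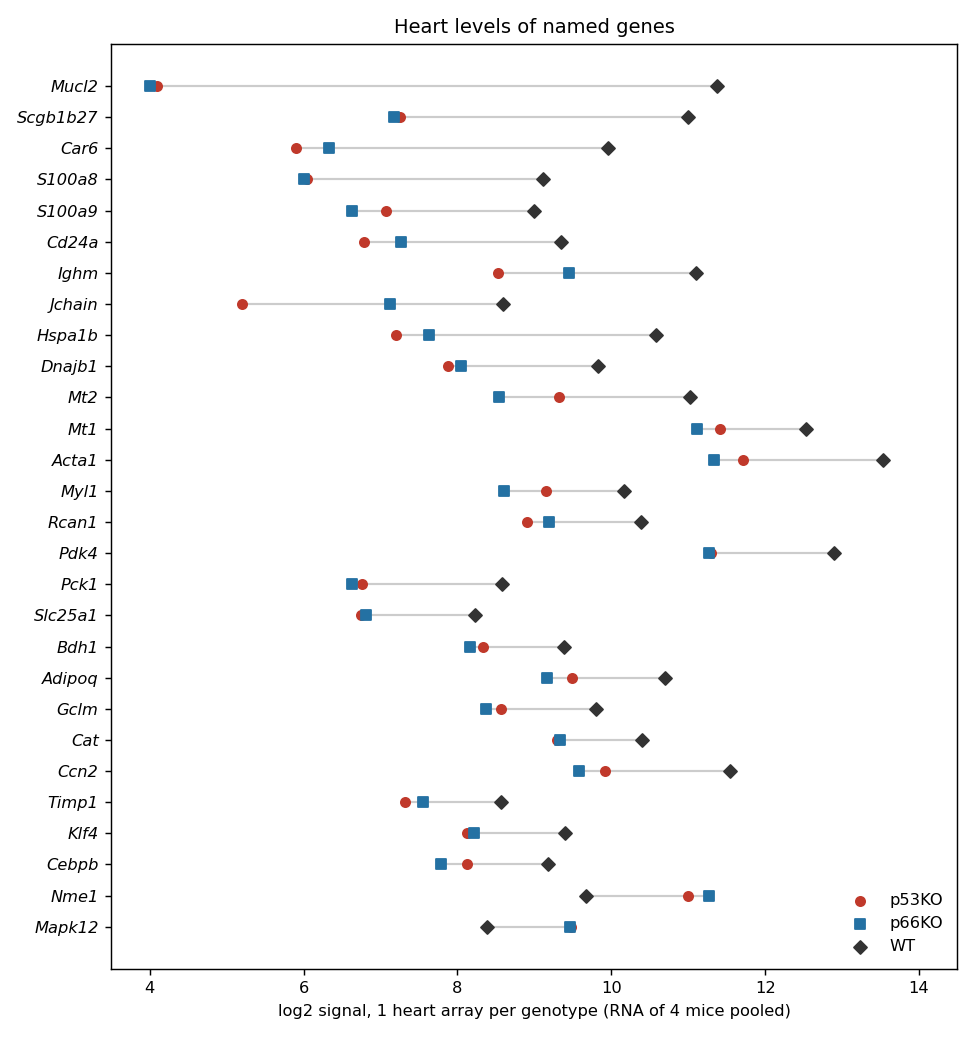
Log2 signal (x axis) of 28 named genes in heart, as 1 point per genotype (red circle p53KO, blue square p66KO, black diamond WT), each from RNA of 4 mice pooled. All 28 are members, so the rule itself places both knock-out points on the same side of WT, below it in 26 genes. In Jchain they stand apart at 5.20 in p53KO and 7.13 in p66KO.

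Fuel and lipid genes made up 12 lower members. Beyond Pck1 and Pdk4, the enzymes of gluconeogenesis and of pyruvate sparing that fasting induces, they covered citrate, ketone and lipid droplet steps. Slc25a1, which exports citrate from mitochondria for fat synthesis, was 6.75 and 6.81 in p53KO and p66KO hearts, against 8.23 in WT hearts. Bdh1, the mitochondrial enzyme that oxidises the ketone body 3-hydroxybutyrate, was 8.33 in p53KO and 8.17 in p66KO hearts, against 9.38 in WT hearts. Ehhadh, of peroxisomal fatty acid oxidation, was 5.42 in p53KO and 5.38 in p66KO hearts, against 6.56 in WT hearts. These lay at different signal levels, and the knock-outs differed from each other by less than 0.2 in each. Glul (glutamine synthetase), Gpat3 (glycerolipid synthesis), Npc1 (lysosomal cholesterol export) and Sgpp1 (sphingosine phosphate breakdown) were also lower in both. Of this group, Pck1, Slc25a1, Ehhadh, Bdh1 and Sgpp1 were 4-fold or more brighter in WT liver than in WT heart. The group spanned -1.04 to -1.82 in p53KO and -1.01 to -1.95 in p66KO hearts, and 6 of the 12 (Bdh1, Gpat3, Adipoq, Glul, Npc1 and Car3) were not 2-fold lower under every rescaling. The fasting and PPAR list had 3 of 21 genes 2-fold lower in both, with medians of -0.54 in p53KO and -0.67 in p66KO hearts as deposited, and -0.37 in p53KO and -0.41 in p66KO hearts after cyclic loess. Of 19 fatty acid oxidation genes and of 43 oxidative phosphorylation genes 0 were 2-fold lower in both. With 0.852% of all genes lower in both, these counts are near that share. The sign of both list medians turned with the scaling. For fatty acid oxidation they were -0.209 and -0.417 in p53KO and p66KO hearts as deposited, and 0.11 in p53KO and 0.031 in p66KO hearts after cyclic loess.

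Part of the lipid group marks fat cells. Adipoq (adiponectin) was 9.48 and 9.16 in p53KO and p66KO hearts, against 10.70 in WT hearts. Cidec, a lipid droplet protein of fat cells, was 5.91 in p53KO and 5.76 in p66KO hearts, against 7.29 in WT hearts. Retn (resistin), another fat cell hormone, was 7.97 and 7.82 in p53KO and p66KO hearts, against 7.86 in WT hearts. In the white adipocyte list 4 of 23 genes were 2-fold lower in both as deposited, and 2 after cyclic loess or quantile normalization. Of the brown fat markers, Ucp1 (uncoupling protein) was 9.40 in p53KO and 7.86 in p66KO hearts, against 10.15 in WT hearts. Of 13 brown adipocyte genes 0 were 2-fold lower in both, which is near the 0.852% of all genes. The part of adherent fat in the lipid results was not tested.

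Redox, detoxification and haem genes numbered 10. Gclm, the modifier subunit of the enzyme that limits glutathione synthesis, was 8.57 and 8.37 in p53KO and p66KO hearts, against 9.81 in WT hearts. Cat (catalase) was 9.30 in p53KO and 9.34 in p66KO hearts, against 10.40 in WT hearts, and Glrx2, a mitochondrial glutaredoxin, was 8.88 in p53KO and 8.64 in p66KO hearts, against 10.11 in WT hearts. Mt1, a metallothionein that binds zinc and copper, was 11.41 and 11.11 in p53KO and p66KO hearts, against 12.53 in WT hearts, but none of its other probe sets was below WT in both. It was among the brightest of the lower genes. On the haem side, Cpox, an enzyme of haem synthesis, was 7.35 in p53KO and 7.27 in p66KO hearts, against 8.49 in WT hearts. Slc25a37, the mitochondrial iron importer, was 7.07 in p53KO and 7.49 in p66KO hearts, against 8.70 in WT hearts. Gclm, Cat, Glrx2, Pgrmc1 and Mt1 were not 2-fold lower under every rescaling. Gclm, Cat, Pgrmc1 and Cpox, with Cyp2e1 and Aldh1a7 of the same group, were 4-fold or more brighter in WT liver than in WT heart. Below WT in both knock-outs were 10 of the 10 in lung, against 27.4% of all genes, 8 in liver, against 35.6%, and 6 in thymus, against 42.8%. Of the NRF2 and antioxidant list 2 of 22 genes (Gclm and Cat) were 2-fold lower in both as deposited, 1 after cyclic loess and 0 after quantile normalization. Of the p53 target list 1 of 28 was as deposited (Ddit4, an inhibitor of the growth kinase mTOR), and 0 after either rescaling.

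Matrix genes numbered 8. Ccn2 (connective tissue growth factor) was 9.92 and 9.58 in p53KO and p66KO hearts, against 11.54 in WT hearts. Timp1, an inhibitor of matrix proteases, was 7.32 in p53KO and 7.55 in p66KO hearts, against 8.56 in WT hearts. Prg4 (lubricin) was 7.52 in p53KO and 7.17 in p66KO hearts, against 9.12 in WT hearts. Structural collagens were not among them, and Timp1 was the only gene of 36 in the collagen and matrix list that was 2-fold lower in both as deposited, with 0 after cyclic loess or quantile normalization. Efemp1, Pcolce2, F13a1, Cd44 and Megf9 completed the group, at -1.02 to -1.66 in p53KO and -1.01 to -1.96 in p66KO hearts for all 8. Timp1, Pcolce2 and F13a1 were not 2-fold lower under every rescaling.

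Cytokine, complement and innate signalling genes numbered 11. Below WT in both knock-outs were 11 of them in liver, against 35.6% of all genes, 8 in lung, against 27.4%, and 2 in thymus, against 42.8%. Among the 11 were Lrg1 and Serpina3n of the acute phase list, both 4-fold or more brighter in WT liver than in WT heart. Cxcl12, C1qb and Serpina3n were not 2-fold lower in heart under every rescaling. Ccl6, a chemokine of myeloid cells in mice, was 8.08 and 7.39 in p53KO and p66KO hearts, against 9.69 in WT hearts. Il33, an alarm cytokine of stromal cells, was 5.74 in p53KO and 5.95 in p66KO hearts, against 7.22 in WT hearts. C1qb, a complement subunit made by macrophages, was 8.39 in p53KO and 8.07 in p66KO hearts, against 9.55 in WT hearts. Ccl6 and C1qb were lowest in p66KO hearts and Il33 in p53KO hearts. Lyve1, a hyaluronan receptor of lymphatic vessels and resident macrophages, was 7.34 in p53KO and 7.33 in p66KO hearts, against 8.79 in WT hearts. Cxcl12, Laptm5, Fermt3, Peli1 and Tbk1 were also lower in both, though for Cxcl12 no other probe set was. Of the other probe sets, 1 of 4 was below WT in both for Laptm5, 1 of 3 for Fermt3, 2 of 4 for Peli1 and 1 of 1 for Tbk1. It was 1 of 2 for C1qb, with a median difference of -0.069 in p53KO and -0.598 in p66KO hearts, and 1 of 1 for Ccl6 and for Lyve1. Among 29 interferon response genes 0 were 2-fold lower in both, which is near the 0.852% of all genes.

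Regulators of transcription, RNA and protein turnover formed the next block. Klf4, a stress-responsive transcription factor, was 8.12 and 8.21 in p53KO and p66KO hearts, against 9.40 in WT hearts. Cebpb, a factor of acute phase and fat cell genes, was 8.12 in p53KO and 7.78 in p66KO hearts, against 9.18 in WT hearts. Pabpc1, which binds poly(A) tails, was 10.52 in p53KO and 10.61 in p66KO hearts, against 12.16 in WT hearts. The 10 RNA and translation genes also held Celf2, Cpeb4 and Zfp36l1, which bind messenger RNA, and Pnrc2, which takes part in its decay. The 10 ubiquitin genes held the conjugating enzymes Ube2r2 and Ube2e1 and the ligases Mib1, Mkrn1 and Rffl. None of these 20 genes was in a list, and the other probe sets of Ube2r2, Ube2e1, Mib1, Rffl, Pdzrn3 and Rpl27a were not below WT in both. Differences in both groups lay between -1.02 and -1.64 in p53KO hearts and between -1.03 and -1.84 in p66KO hearts. Fgfr1, Shoc2 and Stk4, of growth factor and stress kinase signalling, were lower by 1.06 to 1.36, though the other probe set of Shoc2 was not below WT in both. Among the genes named here, Pabpc1, Mib1, Rffl, Pdzrn3 and Stk4 were 2-fold lower under all 3 rescalings, and the others were not.

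Of lists of genes that respond to hormones, the glucocorticoid list had 6 of 30 genes 2-fold lower in both, with medians of -0.66 and -0.69 in p53KO and p66KO hearts. After cyclic loess 5 were, with medians of -0.39 and -0.51 in p53KO and p66KO hearts, and after quantile normalization 4. Heat shock had 6 of 19 and the acute phase 5 of 27 as deposited, and 5 each after cyclic loess. No gene was 2-fold lower in both knock-outs among 21 circadian clock genes, 29 genes of the unfolded protein response, 35 cell cycle genes of the S and G2-M phases, 25 ion channel genes and 20 sterol synthesis genes. For lists of these sizes that is near the 0.852% of all genes. The unfolded protein response medians were -0.290 in p53KO and -0.289 in p66KO hearts, and -0.136 and -0.013 after cyclic loess. The sterol synthesis medians were -0.326 in p53KO and -0.470 in p66KO hearts, and -0.195 and -0.317 after cyclic loess. Immediate early genes had 2 of 32 as deposited and 1 after cyclic loess or quantile normalization. Of the 155 lower genes, 49 were in a list, and 47 were in neither a list nor a functional group.

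**Figure D3:**
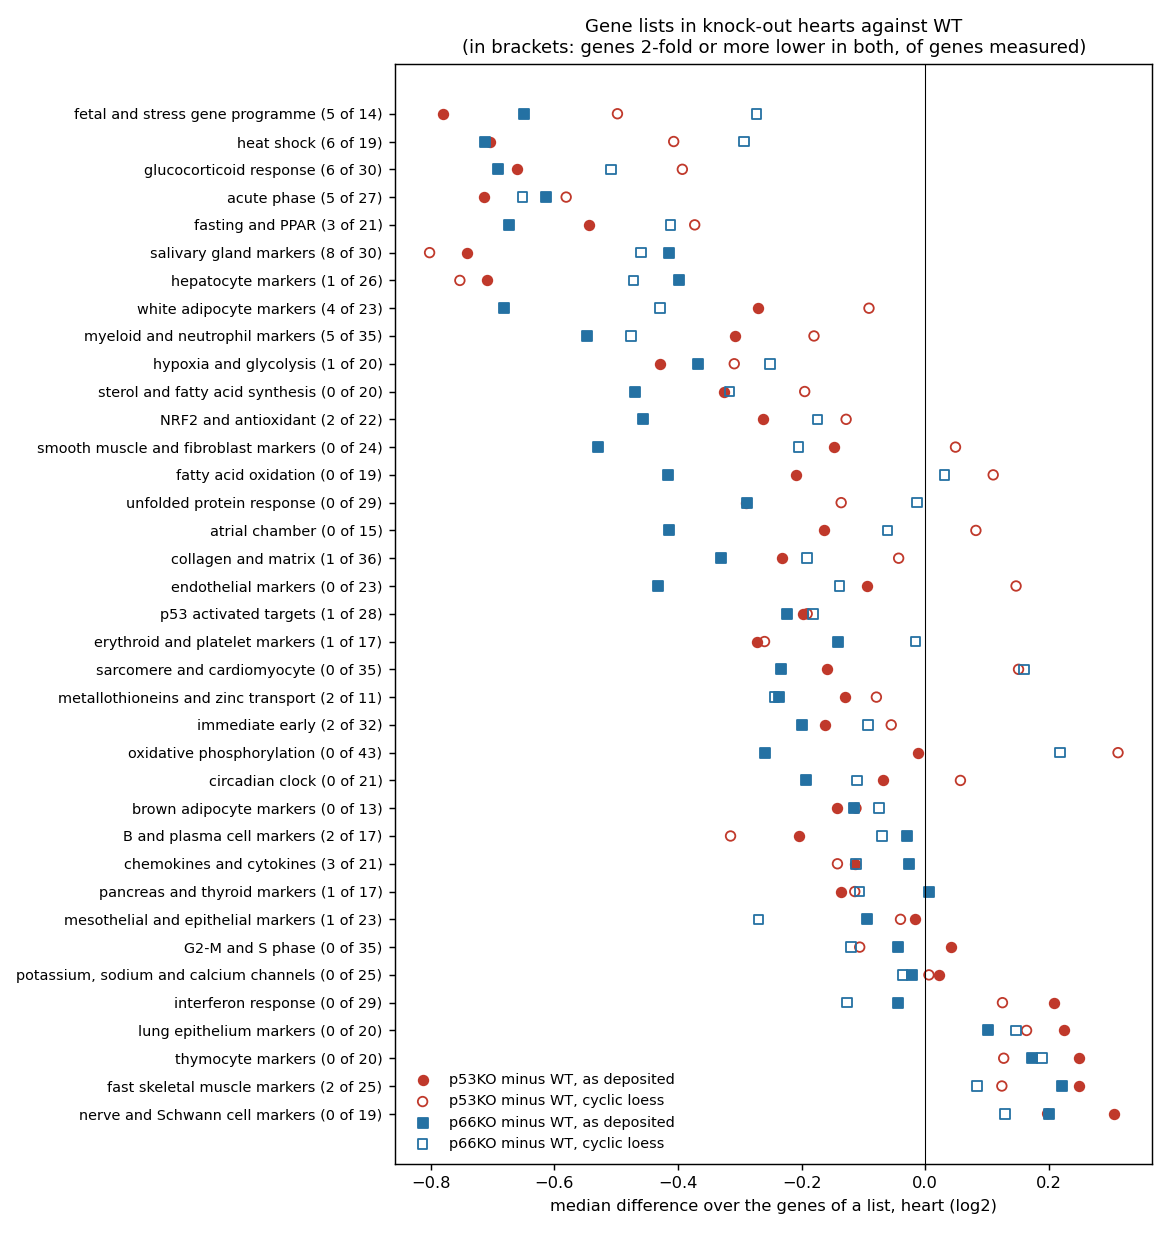
Median difference from WT in heart (log2, x axis) over the genes of each list, red circles for p53KO and blue squares for p66KO, filled for deposited values and open after cyclic loess of the heart arrays. Brackets give genes 2-fold lower in both of genes measured, and the sarcomere, fatty acid oxidation and oxidative phosphorylation medians lie below 0 as deposited and above 0 after loess in both knock-outs.

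The genes with the largest differences were salivary. Mucl2, a secreted mucin-like protein, was 4.10 and 4.00 in p53KO and p66KO hearts, against 11.38 in WT hearts. Prol1, a proline-rich secreted protein, was 4.22 in p53KO and 4.06 in p66KO hearts, against 8.73 in WT hearts. Pip, a secreted protein of exocrine glands, was 5.08 in p53KO and 5.29 in p66KO hearts, against 8.89 in WT hearts. In each of them the knock-out heart lay near the level of lung and liver, where Mucl2 ran over 3.74 to 4.14, and only the WT heart was high. Scgb2b27, Scgb1b27, Klk1b16, Klk1b27 and Car6 followed the same order, giving 8 of 30 salivary markers 2-fold lower in both, and Crisp3, outside the list, did too. Of the 30 markers, 1 stood more than 1 above the highest lung or liver array in p53KO hearts (Smr2) and 2 did in p66KO hearts (Klk1b24 and Smr2), against 14 in WT hearts.

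The WT thymus array carried the same transcripts. There Mucl2 was 4.17 and 4.63 in p53KO and p66KO thymus, against 14.66 in WT thymus. On a linear scale, salivary signal in heart as a share of that in WT thymus had a median of 0.452% in p53KO and 0.621% in p66KO hearts, against 1.85% in WT hearts, over 26 genes. Shares near the floor of an array hold background signal. Not every salivary gene was 2-fold lower in both. Klk1, tissue kallikrein, was 8.60 and 8.39 in p53KO and p66KO hearts, against 7.98 in WT hearts, with 8.24 in WT thymus, though with the mean of its probe sets it lay below WT in both. Klk1b5 was 6.02 in p53KO and 7.0 in p66KO hearts, against 7.16 in WT hearts. Egf, made in quantity by the mouse submandibular gland, was 6.04 and 6.54 in p53KO and p66KO hearts, against 7.32 in WT hearts. Dcpp1 was 5.43 in p53KO and 5.83 in p66KO hearts, against 6.68 in WT hearts. Egf and Dcpp1 were among the 14 markers that stood above lung and liver in WT hearts, and missed the 2-fold rule in p66KO hearts alone.

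**Figure D4:**
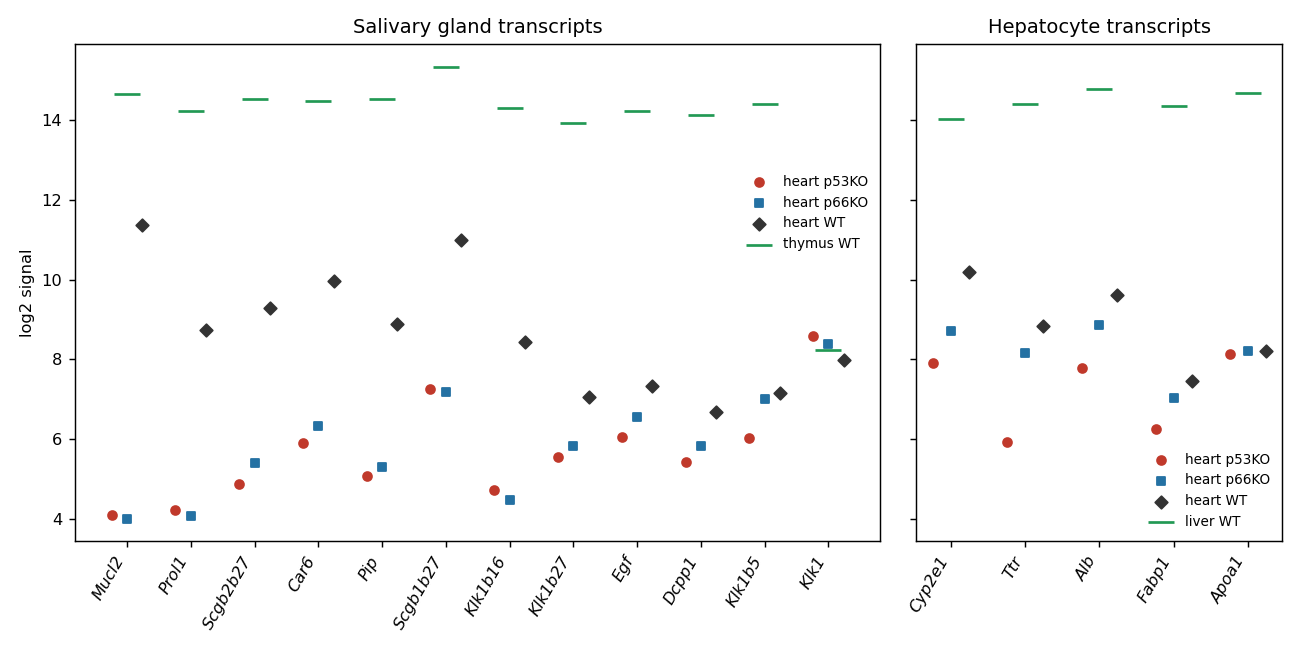
Log2 signal (y axis) of 12 salivary gland genes (left) and 5 hepatocyte genes (right) in heart, as red circles for p53KO, blue squares for p66KO and black diamonds for WT, with a green bar for WT thymus (left) or WT liver (right). WT hearts stand alone above both knock-outs in Mucl2 to Klk1b16, whereas the hepatocyte genes shown step up over p53KO, p66KO and WT. Apoa1 is nearly level, at 8.14 in p53KO, 8.20 in p66KO and 8.22 in WT.

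Many hepatocyte transcripts followed another pattern, lowest in p53KO hearts, though Tat, Hpd and Kng1 were among those that did not. Alb (albumin) was 7.77 and 8.86 in p53KO and p66KO hearts, against 9.62 in WT hearts. Ttr, a carrier of thyroid hormone, was 5.92 in p53KO and 8.16 in p66KO hearts, against 8.83 in WT hearts. Of 26 hepatocyte markers, as deposited, 11 were 2-fold lower in p53KO and 1 in p66KO hearts. In both it was 1 as deposited, 3 after cyclic loess and 2 after quantile normalization. The 1 was Cyp2e1, a liver cytochrome P450, at 7.92 in p53KO and 8.70 in p66KO hearts, against 10.19 in WT hearts. The median share of the WT liver signal was 0.77% and 1.03% in p53KO and p66KO hearts, against 1.02% in WT hearts (25 genes). Jchain and 1 probe set of Ighm, genes of plasma cells, had the same order. Jchain, the joining chain of secreted antibodies, was 5.20 and 7.13 in p53KO and p66KO hearts, against 8.59 in WT hearts, and Ighm was 8.53 in p53KO and 9.46 in p66KO hearts, against 11.11 in WT hearts. Of the 10 other Ighm probe sets, 2 were below WT in both, and their median difference was 0.069 in p53KO and 0.042 in p66KO hearts. The pan-B-cell gene Cd79a was 6.67 in p53KO and 6.61 in p66KO hearts, against 7.29 in WT hearts.

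Neutrophil markers split. S100a8, a calcium-binding protein of neutrophils and monocytes, was 6.05 and 6.01 in p53KO and p66KO hearts, against 9.11 in WT hearts. The granule genes Ngp, at 7.47 and 7.62 in p53KO and p66KO hearts, against 7.31 in WT hearts, and Camp, at 6.93 in p53KO and 6.62 in p66KO hearts, against 6.45 in WT hearts, were not lower. In the myeloid and neutrophil list 5 of 35 genes were 2-fold lower in both. Alas2, of red cell haem synthesis, was 9.99 and 10.30 in p53KO and p66KO hearts, against 10.98 in WT hearts.

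Lists of lung, thymocyte and nerve markers had medians above WT in both knock-outs as deposited, and the vessel lists had medians below WT. The endothelial medians were -0.094 in p53KO and -0.433 in p66KO hearts. After cyclic loess they were 0.147 and -0.139 in p53KO and p66KO hearts. The smooth muscle and fibroblast medians were -0.148 in p53KO and -0.529 in p66KO hearts, and 0.049 and -0.205 after cyclic loess. The lung surfactant gene Sftpc was 6.81 and 6.90 in p53KO and p66KO hearts, against 6.53 in WT hearts. Scgb1a1, of airway club cells, was 7.28 in p53KO and 9.45 in p66KO hearts, against 9.05 in WT hearts, and so was lower in p53KO alone. The thymocyte gene Rag1 was 5.10 in p53KO and 4.78 in p66KO hearts, against 4.74 in WT hearts. No gene of 20 in the lung epithelium list and none of 20 in the thymocyte list was 2-fold lower in both, as with 23 endothelial, 24 smooth muscle and fibroblast and 19 nerve genes. With 0.852% of all genes lower in both, these counts are near that share. Msln, a gene of the mesothelium that covers the heart, was 6.38 and 6.19 in p53KO and p66KO hearts, against 7.02 in WT hearts. Cela1, a pancreatic elastase, was the only 1 of 17 pancreas and thyroid markers 2-fold lower in both as deposited, at 6.52 in p53KO and 6.46 in p66KO hearts, against 8.04 in WT hearts. The medians of that list were -0.137 in p53KO and 0.006 in p66KO hearts. Pnliprp1, a pancreatic lipase-related protein chosen after its values were seen, was 5.60 in p53KO and 5.42 in p66KO hearts, against 6.90 in WT hearts. The part of other tissues in the functional groups was not tested.

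Across the WT arrays, 54 of the 155 lower genes (34.8%) were 4-fold or more brighter in another tissue than in heart, against 8.44% of all genes. By tissue these were 22 in lung, 25 in liver and 19 in thymus. Leaving out every gene that was 4-fold brighter elsewhere, 101 of 16657 genes (0.606%) were 2-fold lower in both knock-out hearts. Only 20 of the 155 (12.9%, against 22.1% of all genes) were brightest in heart, among them Acta1, Ccn2, Pdk4, Art3, Inpp5a, Rcan1, Myl1 and Timp1.

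The 4 genes higher in both knock-outs were in none of the lists. Nme1, a nucleoside diphosphate kinase, was 11.00 and 11.26 in p53KO and p66KO hearts, against 9.67 in WT hearts. Sec14l4, a lipid-binding protein, was 7.54 in p53KO and 7.0 in p66KO hearts, against 5.81 in WT hearts. Gngt1, a G protein gamma subunit known from rod photoreceptors, was 6.69 in p53KO and 6.32 in p66KO hearts, against 5.19 in WT hearts, and Mapk12, a p38 kinase of muscle, was 9.48 in p53KO and 9.46 in p66KO hearts, against 8.38 in WT hearts. Nme1 and Sec14l4 were 2-fold higher in both under all 3 rescalings, Mapk12 not under median centring and Gngt1 only under median centring. Their other probe sets were nearer WT. Nme1 differed by 0.203 in p53KO and -0.278 in p66KO hearts in the median of its others, Mapk12 by 0.026 in p53KO and -0.121 in p66KO, and Gngt1 by 0.052 in p53KO and 0.321 in p66KO. Of the 155 lower genes, 60 had a single probe set. The other 95 had 199 further probe sets, of which 111 (55.8%) were below WT in both knock-outs, against 33.6% for genes outside the rule. Of the 199, 18 passed the rule themselves. For 44 of the 95 genes every other probe set was below WT in both, and for 20 none was. The 20 include Megf9, Rest, Shoc2, Pdzrn3, Mapk1ip1l, Mt1 and Cxcl12 of the functional groups.

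Arrays of lung, liver and thymus, which the rule did not use, gave a replicated comparison over 9 arrays with tissue as a block. With limma and Benjamini-Hochberg adjustment over all genes, 0 genes passed an adjusted p of 0.05 in either knock-out. At an unadjusted p under 0.05, 42 of the 155 lower genes (27.1%) differed in p53KO, all lower, against 6.94% of all genes. In p66KO 11 (7.1%) did, 8 lower and 3 higher, against 3.87% of all genes. Hspa1b, an inducible Hsp70 chaperone, had the lowest p of the members, with a p53KO difference of -3.14 ± 0.34 (SE; limma adjusted p = 0.169). Pdk4 was next at -1.29 ± 0.188 (limma adjusted p = 0.506). The arrays of a genotype may share mice, so the p-values can be too small.

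Without the lung arrays, 16 of the 155 had an unadjusted p under 0.05 in p53KO and 6 in p66KO. The WT thymus array with its salivary transcripts entered this fit. Without the thymus arrays, 99 of the 155 (63.9%) had an unadjusted p under 0.05 in p53KO, 97 of them lower, against 15.6% of all genes, and 32 (20.6%) did in p66KO, against 3.44%. In that fit 8 genes passed an adjusted p of 0.05 in p53KO, among them the members S100a8, Dnajb1, Hspa1b and Hsph1, and 1 in p66KO, which was no member. S100a8 had a p53KO difference of -2.11 ± 0.169 (SE; limma adjusted p = 0.0112). Hsph1, a chaperone of the Hsp110 family, had one of -2.04 ± 0.231 (limma adjusted p = 0.0402).

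By tissue, 100 of the 155 (64.5%) were below WT in both knock-out lungs, against 27.4% of all genes, and 111 (71.6%) in both knock-out livers, against 35.6%. In thymus it was 42 (27.1%), against 42.8%. Signal range differed between these arrays too. The SD over genes was 1.847 and 1.996 on the p53KO and p66KO lung arrays, against 1.987 on the WT array. In liver it was 1.911 in p53KO and 1.932 in p66KO, against 1.993 in WT. In thymus it was 1.923 in p53KO and 2.0 in p66KO, against 1.728 in WT. The part of signal range in these shares of bright genes was not tested. The median of the 155 was -0.913 in p53KO and -0.129 in p66KO lung, -0.415 and -0.281 in p53KO and p66KO liver, and 0.017 and 0.419 in p53KO and p66KO thymus. Hspa1b and Lcn2, an iron-siderophore-binding acute phase protein, were the only genes of the array that were 2-fold lower on all 6 knock-out arrays of these tissues. S100a8, S100a9, Dnajb1 and Hsph1 were 2-fold lower on all 4 of lung and liver. Of the 12 fuel and lipid genes, 4 were below WT in both knock-out lungs, 8 in both livers and 3 in thymus.

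**Figure D5:**
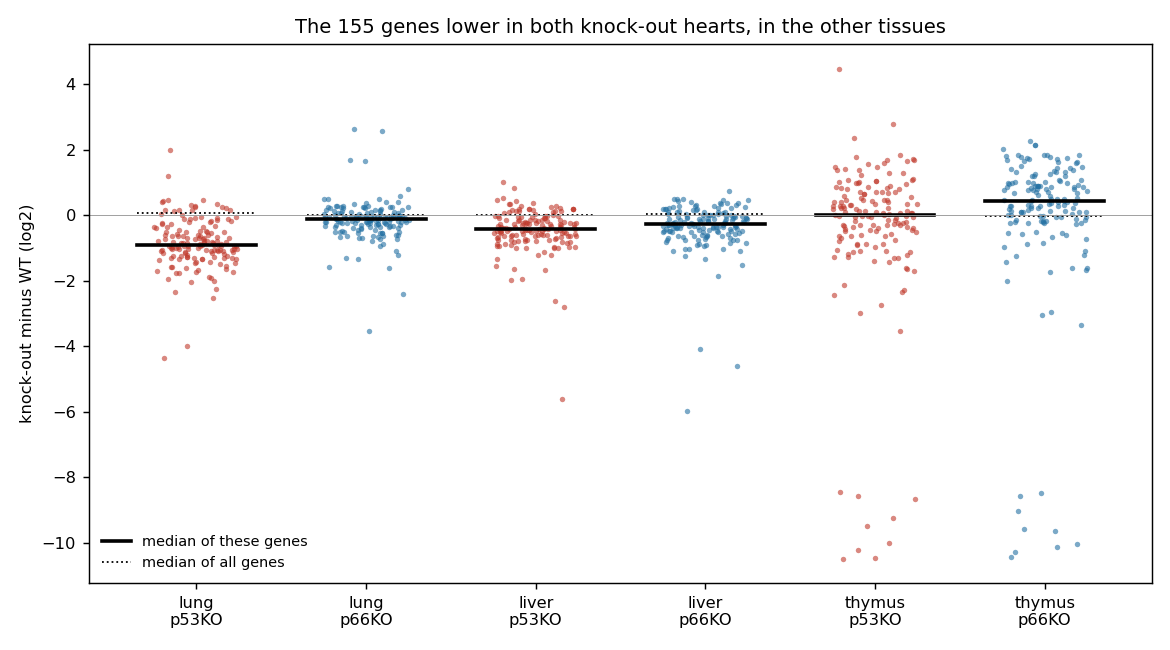
Difference from WT (log2, y axis) of the 155 genes lower in both knock-out hearts on the p53KO (red) and p66KO (blue) arrays of lung, liver and thymus, 1 point per gene, with solid bars for their median and dotted bars for the median of all genes. The solid bar is lowest in p53KO lung (-0.913), and the points near -9 in thymus are salivary genes that were high in WT thymus.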

How the data were processed

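Groups came from the sample labels. Levels are the authors' deposited log2 signals from Affymetrix Mouse Genome arrays, made by RMA (background correction, quantile normalization, summary per probe set) in Partek 6.5. Quantile normalization forces arrays to a like distribution, which can shift bright or dim genes where arrays differ in range.

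Of 45101 probe sets, 64 controls were set aside and 34945 carried a single gene symbol. For a gene with several, the one brightest on average over 12 arrays was kept, giving 18193 genes. WT was subtracted from each knock-out. R 4.3.3 with limma 3.58.1 (lmFit, eBayes, Benjamini-Hochberg) was fitted to the 9 other arrays with 4 residual degrees of freedom, after a test on simulated data. Python 3.11.15, numpy 2.4.6, pandas 2.3.3 and matplotlib 3.10.9 were used.

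The members, the 38 gene lists, the tests and the rule for named genes were chosen with earlier results of these data known. That rule took the genes higher in both, the 30 lowest in both, up to 6 members of each list, the 3 genes on each side of the threshold, defining markers, Shc1 and the 10 members of lowest p in limma. The functional groups were chosen after their values were seen. Alternatives were other fold thresholds, brighter genes, 3 rescalings of the heart arrays (quantile normalization, median centring, cyclic loess), probe set choices, and each other tissue left out in turn. The number of arrays limits the precision.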

Additional observations from a re-analysis of the deposited data

Results flagged for a closer look

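Several genes that were lower in both knock-out hearts differed from WT the other way in both knock-outs of another tissue, and these differences between tissues were not tested. Adipoq was higher by 1.18 in p53KO and 1.66 in p66KO lung. In thymus, 23 of the genes lower in both hearts (14.8%) were 2-fold higher than WT in both knock-outs, against 7.38% of all genes. The other way, 19 (12.3%) were 2-fold lower in both knock-out thymus arrays, against 2.91% of all genes. The 23 include Nfatc3, Bdh1, Tpm3, Celf2, Peli1, Laptm5, Fermt3 and Stk4 of the functional groups. Efhd2, a calcium-binding protein, was higher by 1.04 in p53KO and 1.62 in p66KO thymus. Lrif1, a nuclear receptor-interacting protein, was higher by 1.10 and 1.83 in p53KO and p66KO thymus, and Pom121, a nuclear pore protein, by 1.47 and 1.83. The WT thymus array held salivary transcripts, and their part in the thymus differences was not tested.

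The hybridization spikes, which enter no comparison of genes, were higher than WT by 0.855 on the p53KO and 0.827 on the p66KO heart array. The polyadenylated spikes, added before labelling, averaged 6.38 and 6.34 on the p53KO and p66KO heart arrays, against 6.95 on the WT array, a difference of -0.573 and -0.616.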

How the results depend on the processing

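The 155 lower and 4 higher genes became 1031 and 165 at 1.5-fold and 27 and 0 at 3-fold, and the genes 2-fold different in either direction, 399 in p53KO and 337 in p66KO hearts, became 2376 and 2673 at 1.5-fold and 56 and 39 at 3-fold. Repeated quantile normalization gave 99 lower genes, 90 of them among the 155. Median centring, which put the median of all genes at -0.07 in p53KO and -0.12 in p66KO hearts, gave 247 lower genes and 521 different in p66KO. Cyclic loess gave 7 higher genes and 139 lower, 105 of them among the 155. The mean of all probe sets gave 91 lower genes, 76 of them among the 155, 1 higher gene (Sec14l4), 213 different in p53KO and 178 in p66KO. Without probe sets shared by related transcripts 1 higher gene was left (Gngt1), and among brighter genes 2 (Mapk12 and Nme1), with 247 different in p53KO. Higher genes made up 9.79% of those different in p66KO as deposited and 20.9% after quantile normalization. In the other tissues, adjusted calls were 8 in p53KO and 1 in p66KO without thymus, against 0 with it. The 42 and 11 lower members at an unadjusted p under 0.05 in p53KO and p66KO became 99 and 32 without thymus and 16 and 6 without lung. No named gene that was 2-fold different changed sign under a rescaling or with the mean of probe sets, though a rescaling could hardly move a gene so far. Of 216 gene differences, 53 moved by more than the SD between the knock-outs (0.289) under quantile normalization, 48 under loess, 68 with the mean of probe sets and 0 under median centring. The cause of these shifts was not tested. No paired analysis was possible because each group had 1 heart array and the labels carry no replicate numbers.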
